A study of Homo sapiens with 6 samples.

Results

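The 9 genes described here encode the human enzymes that write, maintain and remove DNA methylation, and their direct cofactors. They are the maintenance methyltransferase DNMT1 with UHRF1, UHRF2 and HELLS, the de novo methyltransferases DNMT3A and DNMT3B, and the dioxygenases TET1, TET2 and TET3. Members were chosen by symbol, and all 9 were among the 15794 human genes listed in the authors' deposited comparison. The study sequenced poly(A) RNA from eHAP, a haploid human cell line engineered from HAP1 cells. In 3 biological replicates the cells were targeted at TFDP1, the gene for DP1, with which most E2F transcription factors pair to bind DNA. The other 3 were controls, labelled NC and wild-type with no gene knocked out, and the labels do not say whether they received a guide without a target. Per the labels' protocols, the cells expressed Cas9, received the guide plasmid together with puromycin resistance, were under puromycin from 24 to 72 h and were collected on day 5. Before RNA extraction, every sample of 500000 eHAP cells received 10000 S2 cells of Drosophila, in both groups alike.

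Methylation of cytosine in CpG dinucleotides is copied at each round of DNA replication. UHRF1 recognises the hemimethylated CpG behind the replication fork and recruits DNMT1, which methylates the new strand, while the remodeller HELLS opens nucleosomal DNA to these enzymes. DNMT3A and DNMT3B place methylation on unmethylated sites, and TET enzymes oxidise 5-methylcytosine, the first step of active demethylation. DNMT1 and UHRF1 are known for transcription that rises as cells enter S phase.

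For each gene the table lists 1 log2 fold change for the comparison, the mean CPM (reads per library total), a likelihood ratio and a p-value, but no value per sample. Values per replicate were therefore not used here, the depth of each library is unknown, and the authors' p-values carry the only information on replicate spread. The group used as numerator is not stated in it. TFDP1 itself was at 1.17 on the log2 scale (2.25-fold) and 226 CPM in the authors' deposited table (adjusted p = 1.08e-283). Directions are given relative to it: "positive" marks a gene higher where TFDP1 transcript was higher, and which group that is was not tested. The table held 4 of 10 blood markers, the highest at 15.3 CPM: ITGA2B was positive (0.49), KIT negative (-0.98) and 2 were not called. Of 8 fibroblast markers 4 were in the table. SPARC (-3.47), THY1 (-2.66) and COL1A1 (-0.28) were negative and 1 was not called. Of 6 epithelial markers also 4 were in the table. EPCAM (-4.18 at 0.51 CPM), KRT8 (-2.94) and KRT18 (-0.52) were negative and 1 was not called. Of 5 neuronal markers, all in the table, SYP was positive (1.71), TUBB3 negative (-1.13) and 3 were not called. Over all genes 17.3% were positive and 22.2% negative. The part of other cell types in the results below was not tested.

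The sequences at the starts of 3 members are shown first, because these are the members whose promoters held the letters of an E2F site, the type of site that a factor containing DP1 binds. The search covered RefSeq promoter windows on GRCh38.p14, 250 bases before to 50 after an annotated start, for the 4 octamers TTTCCCGC, TTTCGCGC, TTTGCCGC and TTTGGCGC on both strands. None of the 4 contains another. All 9 members matched, with 20 windows in all. Capitals mark the matches in the stretches below, each read 5′ to 3′ on the gene's strand.
DNMT1: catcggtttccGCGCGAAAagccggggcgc
UHRF1, first start: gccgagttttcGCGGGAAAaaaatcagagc
UHRF1, second start: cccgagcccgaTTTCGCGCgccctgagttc
HELLS: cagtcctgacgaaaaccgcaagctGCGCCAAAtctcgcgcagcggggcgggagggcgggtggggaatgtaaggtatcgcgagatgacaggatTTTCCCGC

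The DNMT1 stretch is chr19:10194937-10194966 on the minus strand. Its match reads TTTCGCGC on the opposite strand and begins 2 bases before the annotated start, so that it spans the start. The first UHRF1 stretch is chr19:4909476-4909505 on the plus strand, with a match to TTTCCCGC on the opposite strand that begins 14 bases before the start at position 4909501. The second is chr19:4909973-4910002, with TTTCGCGC on the gene's strand 160 bases before the start at 4910144. HELLS, shown at chr10:94545688-94545787 on the plus strand, held 2 matches. Its TTTCCCGC occupies the last 8 bases before the start, and a match to TTTGGCGC on the opposite strand begins 76 bases before it. In each of the 3 genes a match thus lay within 14 bases of an annotated start.

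No window of UHRF2, DNMT3A, DNMT3B, TET1, TET2 or TET3 held any of the 4 octamers, which says only that these letters were not in these windows. The only DNMT3B window, chr20:32779602-32779901, lay inside the gene and held 3 CpG, against a median of 24 in windows of tested genes. The annotated 5′ end of DNMT3B, at 32762385, was not searched. At least 1 octamer was found in 3.31% of all 35116 RefSeq windows and in the windows of 6.40% of the 11251 tested genes with a promoter entry, against 3 of the 9 members. Counted by window, it was in 4.67% of the 16440 windows of tested genes and in 4 of the 20 of members. Singly, TTTCCCGC was in 1.63% of all windows, TTTGGCGC in 0.652%, TTTGCCGC in 0.607% and TTTCGCGC in 0.515%. Among the tested genes with an octamer 31.1% were called positive and 17.4% negative in the authors' deposited table, against 18.1% and 23.5% of those without. The median log2 fold changes with and without an octamer were 0.058 and -0.023, and the median levels 43.3 and 29.6 CPM. The part of the octamers in these changes was not tested. The cell cycle homology region TTTGAA, a shorter motif of mitotic promoters found in 15.2% of all windows, was in windows of DNMT3A and TET2 and of no other member. Of the 11251 tested genes, 13.9% had it in a window. The matches describe letters and not bound sites.

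Of the 9 members 6 were positive and 0 negative at the authors' adjusted p under 0.05, and 3 were not called. Over all 15794 genes 39.5% were called, 17.3% positive and 22.2% negative. All members lay above 10 CPM, and of genes at or above that level 50.1% were called, 24.2% positive and 25.9% negative. The median log2 fold change of the members was 0.27, against -0.025 over all genes, and no member changed by 2-fold. The positive members were DNMT1, UHRF1, UHRF2, HELLS, DNMT3A and TET3, and those not called were DNMT3B, TET1 and TET2. Values ran from -0.060 for DNMT3B to 0.51 for UHRF1. After centring on the median ribosomal protein gene, 62.5% of all called genes were positive, against 43.9% as deposited, and the same 6 members were positive.

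**Figure D1:**
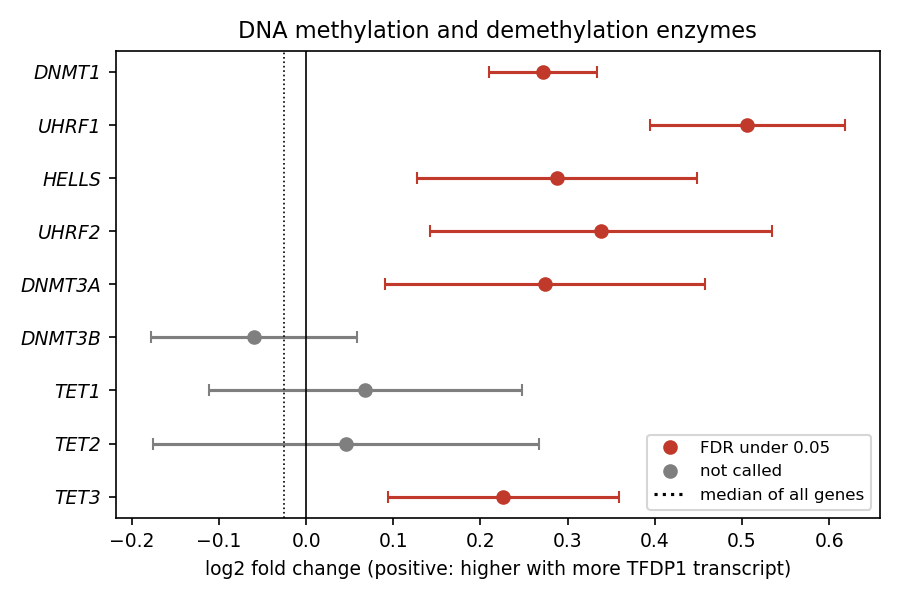
Log2 fold change of each member (horizontal axis, positive where the gene was higher with more TFDP1 transcript), with points for the authors' values and bars for approximate 95% intervals. Red points passed the authors' adjusted p of 0.05 and grey points did not. The 4 maintenance genes at the top lie between 0.27 and 0.51, and DNMT3B, TET1 and TET2 have intervals that include 0.

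The maintenance group was positive throughout. UHRF1 (protein coding, ENSG00000276043.4 in GENCODE 29, chromosome 19 of GRCh38 from 4903080 to 4962154, plus strand) was at 0.51, or 1.42-fold, and 123 CPM in the authors' deposited table (adjusted p = 2.81e-17). Its standard error, approximated as the size of the log2 fold change over the root of the likelihood ratio, was 0.057, giving a 95% interval of 0.39 to 0.62. It was the largest change of the 9: 92.8% of all genes had a lower fold change, and 97.8% of the 1853 genes within 0.5 log2 CPM of its level did. DNMT1 (chromosome 19, positions 10133345 to 10231286, minus strand, ENSG00000130816.15) was at 0.27, or 1.21-fold, with an interval of 0.21 to 0.33 and an adjusted p of 2.80e-16. At 331 CPM it was the member with the most reads, above 97.2% of all genes, and it had the smallest standard error of the group, 0.032. The change of DNMT1 was smaller than that of UHRF1 by 0.23 on the log2 scale, with an approximate interval of the difference of 0.11 to 0.36, taking the errors of the genes as independent.

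HELLS (chromosome 10, positions 94501434 to 94613905, plus strand, ENSG00000119969.14) was at 0.29, or 1.22-fold, and 28.6 CPM, with an interval of 0.13 to 0.45, in the authors' deposited table (adjusted p = 0.00208). DNMT1 minus HELLS gave a difference of -0.017, and its interval of -0.19 to 0.16 includes 0. The longest HELLS transcript is rich in A and T, with a GC content of 37.6%, lower than in all but 6.64% of tested genes. With trends of fold change on transcript length and GC content removed, HELLS fell to 0.17 and lost its call (adjusted p = 0.0822). UHRF2 (chromosome 9, positions 6413151 to 6507054, plus strand, ENSG00000147854.16), the paralogue of UHRF1 that shares its domains but does not replace it in maintenance, was at 0.34, or 1.26-fold, and 22.8 CPM. Its adjusted p was 0.00329. UHRF1 exceeded UHRF2 by 0.17 with an interval of -0.058 to 0.39, so a difference between these paralogues was not resolved.

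The de novo enzymes did not move alike. DNMT3A (chromosome 2, positions 25227855 to 25342590, minus strand, ENSG00000119772.16) was at 0.27, or 1.21-fold, in the authors' deposited table, with an interval of 0.090 to 0.46 (adjusted p = 0.0129). At 15.8 CPM it had the fewest reads of the 9, and among the called members it had the largest adjusted p. DNMT3B (chromosome 20, positions 32762385 to 32809356, plus strand, ENSG00000088305.18) was at -0.060 and 44.7 CPM, with an adjusted p of 0.499. Its interval of -0.18 to 0.059 lies below the values of all 6 called members. DNMT3A exceeded DNMT3B by 0.33, with an interval of the difference of 0.12 to 0.55, and DNMT1 exceeded DNMT3B by 0.33, with an interval of 0.20 to 0.47. The comparison of DNMT1 with DNMT3B, like those of DNMT1 with HELLS and TET3, was added after the values were seen.

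Of the TET enzymes only TET3 passed the authors' test. TET3 (chromosome 2, positions 73986404 to 74108176, plus strand, ENSG00000187605.15) was at 0.23, or 1.17-fold, and 108 CPM, with an interval of 0.094 to 0.36 in the authors' deposited table (adjusted p = 0.00362). TET1 (chromosome 10, positions 68560656 to 68694482, plus strand, ENSG00000138336.8) was at 0.068 and 55.0 CPM with an adjusted p of 0.626. TET2 (chromosome 4, positions 105145875 to 105279816, plus strand, ENSG00000168769.13) was at 0.046 and 48.5 CPM with an adjusted p of 0.809. The data do not separate the 3 paralogues: TET3 exceeded TET1 by 0.16 (interval -0.066 to 0.38) and TET2 by 0.18 (interval -0.078 to 0.44). TET1 and TET2 differed by 0.022, with an interval of -0.26 to 0.31. The change of TET3 was also not resolved from that of DNMT1, with a difference of 0.046 and an interval of -0.10 to 0.19. The intervals of TET1 and TET2 reach 0.25 and 0.27 on the positive side, above the value of TET3.

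**Figure D2:**
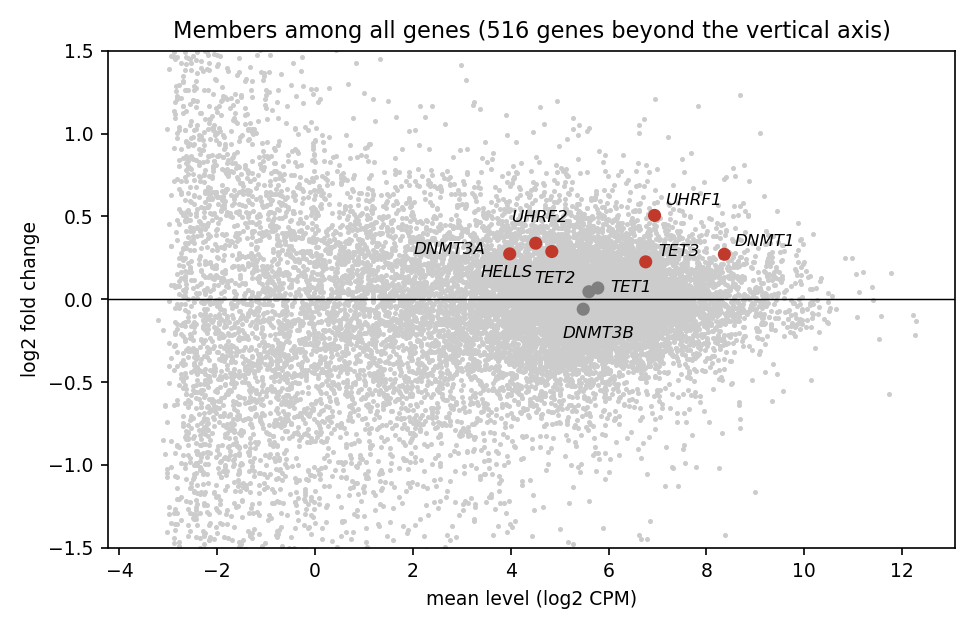
Log2 fold change (vertical axis, from -1.5 to 1.5) against mean level in log2 CPM (horizontal axis) for all genes in grey, with the members in red where called and dark grey where not. The members lie between 15.8 and 331 CPM, and UHRF1 stands nearest the upper edge of genes at its level.

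The precision of the members also differed between genes of like level. TET2 had a standard error of 0.113, larger than that of 99.5% of the 2711 genes within 0.5 log2 CPM, whose median was 0.066. TET1 was at 0.092, above 96.9% of genes at its level, UHRF2 at 0.100, above 92.6%, and TET3 at 0.068, above 90.2%. DNMT3B, at nearly the level of TET2, had a standard error of 0.061, above only 16.6% of genes at its level, so its estimate was tighter. DNMT1 likewise stood above only 11.5% of its neighbours in level. The values per replicate behind the wide estimates of TET1 and TET2 were not used here.

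**Figure D3:**
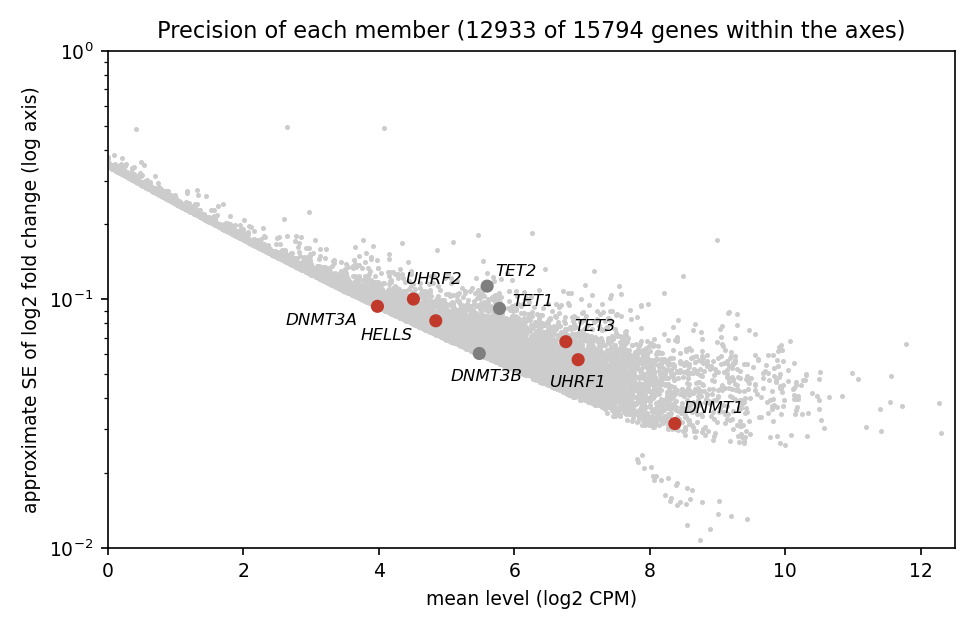
Approximate standard error of the log2 fold change (vertical axis, logarithmic) against mean level in log2 CPM (horizontal axis) for all genes in light grey and the members in red (called) or dark grey (not called). TET2 at 0.113 and TET1 at 0.092 lie at the upper edge of genes at their level, and DNMT3B at 0.061 lies below the median of 0.068 for its level.

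Levels between genes were compared per kilobase of the longest GENCODE 29 transcript, since longer transcripts give more reads. DNMT1 came first at 61.1 CPM per kilobase, followed by UHRF1 at 28.5, DNMT3B at 10.3 and TET3 at 9.52. UHRF2 (6.12), TET1 (5.92), HELLS (5.74) and TET2 (4.77) followed closely, and DNMT3A was lowest at 1.66. DNMT1 was thus 5.93 times as abundant as DNMT3B, UHRF1 4.66 times as abundant as UHRF2, and DNMT3A stood at 0.161 of DNMT3B on this scale. These ratios have no error of their own, because the spread between replicates of the levels is unknown, and they depend on which isoform the cells use. The transcripts of the TET genes and DNMT3A are long, from 9288 to 11388 bases against a median of 3488 over all genes.

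The nearest tested gene on either side of each member gave 18 genes, of which 3 were positive, 5 negative and 10 not called (median -0.12). Over all genes 17.3% were positive and 22.2% negative, so these counts lie near the background. The 3 positive genes were DTNB beside DNMT3A (0.25), MAPRE1 beside DNMT3B (0.16) and CCAR1 beside TET1 (0.17) in the authors' deposited table. Among the negative were PLIN3 beside UHRF1 (-0.37), EIF3G (-0.11) and S1PR2 (-0.49) beside DNMT1, SLC25A16 beside TET1 (-0.21) and BOLA3 beside TET3 (-0.21). S1PR2 overlaps the annotated DNMT1 locus on the same strand, and TBC1D12 (-0.11, not called) overlaps that of HELLS. The sources used here do not say how reads in such overlaps were assigned, and neither neighbour had the sign of the member. Antisense transcripts are annotated across UHRF2 and TET2, and the strand setting of the counting is likewise not given.

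Proteins that work with the maintenance enzymes were mostly positive. Of 14 genes listed, 13 were in the table: 10 were positive, 0 negative and 3 not called. Their median on the log2 scale was 0.32, against -0.025 over all genes. The positive share of the list was 76.9%, against 24.2% of all genes at or above 10 CPM, a level that all 13 exceeded. RB1, the retinoblastoma protein that binds DNMT1, was at 0.54, CTCF, the insulator protein, at 0.38, the replication clamp PCNA, which tethers DNMT1 to the fork, at 0.39 and the ligase LIG1, which UHRF1 binds, at 0.40 in the authors' deposited table. Their adjusted p values were 4.98e-30, 1.34e-24, 1.19e-23 and 3.32e-16. The histone deacetylase genes HDAC1 (-0.052) and HDAC2 (-0.028) and DMAP1 (-0.075), which bind DNMT1, were not called. The list holds several replication genes, and it was drawn up with results of these data known.

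Of 22 recruiters and histone mark writers linked to de novo methylation, 11 were positive, 11 not called and 0 negative, and the median was 0.13. Of all genes at or above 10 CPM, a level that all 22 exceeded, 24.2% were positive and 25.9% negative. EZH2, the methyltransferase of H3K27, was at 1.09, WHSC1 (NSD2), which writes H3K36 dimethylation, at 0.52, the H3K4 demethylase gene KDM1B at 0.48 and the H3K9 methyltransferase gene SUV39H1 at 0.29 in the authors' deposited table. TRIM28 (0.059) and SETDB1 (0.012), which silence retroelements, were not called. Methyl-CpG binding proteins and related MBD family members, not all of which bind methylated CpG, numbered 10. Of these 3 were positive, 1 negative and 6 not called (median 0.056). The 3 of 10 positive lie near the 24.2% of all genes at or above 10 CPM. The 1 of 10 negative compares with 25.9% of those genes, and the lowest of the 10 was at 9.21 CPM. MBD2, a reader of methylated DNA in the NuRD complex, was at 0.56 and MBD6 at 0.15, whereas the zinc finger reader ZBTB4 was at -0.42.

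**Figure D4:**
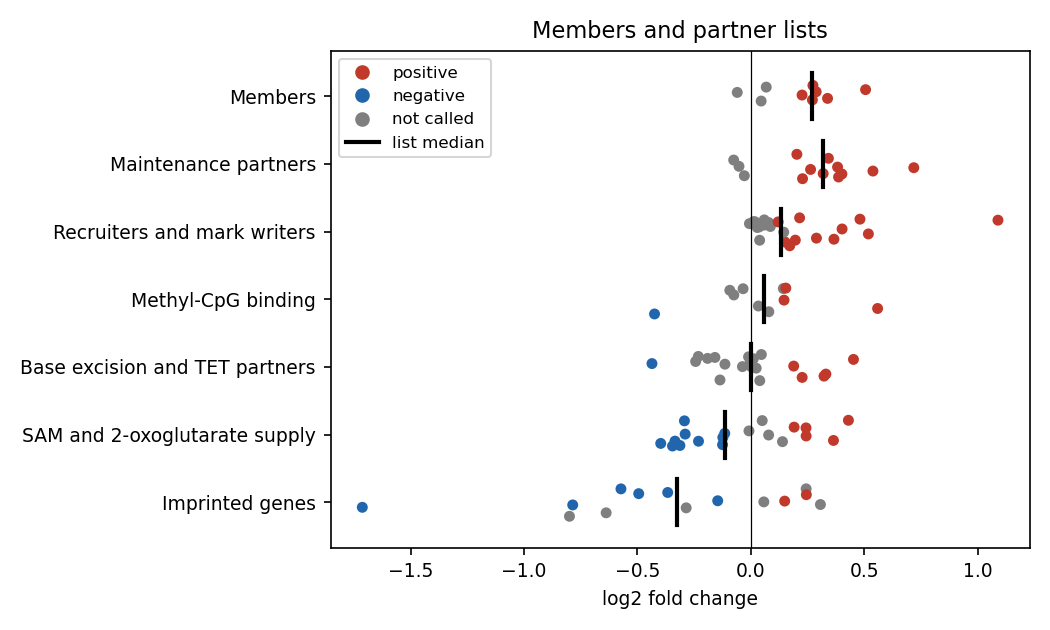
Log2 fold change (horizontal axis) of each gene in the members and in 6 lists of related genes, with positive genes in red, negative genes in blue and uncalled genes in grey, and a black bar at each list's median. Members and maintenance partners have medians of 0.27 and 0.32, and the supply list and the imprinted genes have medians of -0.11 and -0.33.

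Base excision enzymes and TET partners, which complete active demethylation, were listed with 20 genes. Of these 5 were positive, 1 negative and 14 not called, with values from -0.44 to 0.45 and a median of -2.4e-04. The positive share of the list, 25.0%, is near the 24.2% of all genes at or above 10 CPM. The negative share, 5.0%, compares with 25.9% of those genes. Not all 20 reached that level, the lowest being at 5.90 CPM. TDG, the glycosylase that removes oxidised methylcytosine, was at 0.011 and OGT, the glycosyltransferase that binds TET proteins, at -0.0099, and neither was called. QSER1, a partner of TET1, was at 0.32, the glycosylase gene NEIL3 at 0.33, VPRBP (DCAF1) at 0.23 and the uracil glycosylase gene SMUG1 at -0.44 in the authors' deposited table, all called.

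Genes that supply the cosubstrates of these enzymes were called in both directions. Of 19 genes 5 were positive, 10 negative and 4 not called (median -0.11). The positive share, 26.3%, is near the 24.2% of all genes at or above 10 CPM, a level that all 19 exceeded. The negative share was 52.6%, against 25.9% of those genes. MAT2A, which makes the methyl donor S-adenosylmethionine, was at 0.36 with an adjusted p of 1.34e-36, and its regulatory subunit MAT2B was at 0.24. AHCY, which clears S-adenosylhomocysteine, the product that inhibits methyltransferases, stood at -0.31 (adjusted p = 1.64e-17 in the authors' deposited table). The mitochondrial serine enzyme gene SHMT2 was at 0.43 and OGDH, which consumes the TET cosubstrate 2-oxoglutarate, at -0.35. The isocitrate dehydrogenases that make 2-oxoglutarate differed in sign, with IDH1 at -0.29 and IDH2 at 0.24. MAT2B, IDH1 and IDH2 were named after their values were seen.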

How the data were processed

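Poly(A) RNA was sequenced from 3 TFDP1-targeted and 3 control samples. Tools named without versions in the submitters' processing notes are featureCounts, HISAT2, Trimmomatic and edgeR, with builds dm6 and hg38. The authors deposited log2 fold changes and log2 CPM values in 1 table; its scaling (human or spike-in reads) and reference group are not given in any source used here. The authors' likelihood ratio is used as a score (1 degree of freedom). The p-value and FDR columns are the authors' own, per the file headers. Replicates could not be compared, and samples were not tested anew.

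A gene was called where the authors' FDR was under 0.05. Standard errors were approximated from the likelihood ratio, and intervals are 1.96 standard errors each way. Gene positions, transcript lengths and GC content are those of GENCODE 29, matched by symbol for 14743 genes (93.3%), and promoters from RefSeq on GRCh38.p14. Older symbols in the lists were matched through RefSeq synonyms. Lowess trends (span 0.3, statsmodels 0.14.6) and re-centring were alternatives, with p recomputed from the shifted fold change over its standard error. Re-centring on the median gene was tested on simulated data, but the lowess trends and the approximation of the standard error were not. Text names all 9 members, their nearest tested neighbours, TFDP1, and the 4 called genes of smallest p in each partner list (3 for germline and imprinted genes; 1 gene under this rule is not reported here), plus uncalled partners, KIT, ITGA2B, MAT2B, IDH1 and IDH2 chosen after their values were seen. Members and lists were chosen with earlier results of these data known. Python 3.11.15, pandas 2.3.3, numpy 2.4.6, scipy 1.17.1 and matplotlib 3.10.9 were used.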

Additional observations from a re-analysis of the deposited data

How the results depend on the processing

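Over 9 alternatives, DNMT1 and UHRF1 were positive in every one, with adjusted p at most 1.40e-13 and 1.30e-14, and no member was negative in any. Only the re-centrings and the removal of trends changed the fold changes. The other alternatives set a different threshold or adjustment on the authors' own values, so they are no new check of the estimates. The count of positive members was 2 (DNMT1 and UHRF1) at an adjusted p under 0.001 and also with Bonferroni adjustment over the table, and 5 or 6 otherwise. Of all genes 9.73% were positive at 0.001 and 6.52% with Bonferroni adjustment. At the other alternatives that share ran from 10.4% with at least 1.2-fold required to 26.8% with the ribosomal centring. DNMT3A lost its call at 0.01, HELLS with length and GC trends removed, and TET3 where at least 1.2-fold was required. Uncalled values changed sign: DNMT3B to 0.023 with the median ribosomal protein gene at 0, and TET1 to -0.080 and TET2 to -0.086 with the trends removed; the cause was not tested. At an adjusted p under 0.01 the methyl-CpG list had 1 positive gene, the supply list 6 negative and the imprinted list 1 positive. Over all genes 13.1% were positive and 17.4% negative at that setting. With the ribosomal centring there were 5 positive methyl-CpG genes, 17 positive recruiters and writers, 6 negative supply genes and 2 positive germline genes. That centring shifted every gene alike: 26.8% of all genes were positive and 16.1% negative, against 17.3% and 22.2% as deposited. No paired analysis was possible because the table analysed gives 1 comparison and no values per sample. For the same reason leaving out replicates and DESeq2 were not run. Depth per sample is unknown, and TET2, UHRF2, DNMT3A and TET1 have the widest intervals of the members.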

Other observations

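Genes known to be under control of DNA methylation were listed as well. Of 34 germline genes that promoter methylation keeps silent in somatic cells, 8 were in the table, and 4 of these lay below 1 CPM. TEX15, a gene of male meiosis, was positive at 0.47 and 35.8 CPM in the authors' deposited table (adjusted p = 4.07e-04). The other 7 were not called and 0 were negative. The 1 of 8 positive lies below the 17.3% of all genes that were positive. The 0 of 8 negative compares with 22.2% of all genes. Of the 7 germline genes not called, DPPA4, a gene of pluripotent cells, was at 0.040 and 264 CPM. The germ cell gene DAZL was at -0.20 and 14.6 CPM.

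Of 20 imprinted genes 14 were in the table, with 2 positive, 6 negative and 6 not called (median -0.33). These shares were 14.3% positive and 42.9% negative, against 17.3% and 22.2% over all genes. Of the 14, 4 lay below 1 CPM, where values are imprecise, among them L3MBTL1 (-1.71 at 0.31 CPM, standard error 0.67). PEG10, a paternally expressed gene derived from a retrotransposon, was at -0.57 and 3387 CPM in the authors' deposited table (adjusted p = 2.46e-51). NAP1L5 was at -0.49, and GRB10, an adaptor of growth factor receptors, at 0.24. SGCE, which shares the imprinted domain of PEG10 and whose annotated start overlaps that of PEG10 on the opposite strand, was at 0.15 with an adjusted p of 0.0412, so the neighbours had opposite signs. The haploid line carries 1 copy of most loci, and the sources used here do not say from which parent that copy came. DPPA4, DAZL and SGCE were named after their values were seen.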
